A study of Mus musculus with 12 samples.

Results

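The proliferation and mitosis genes are a list of 43 genes that dividing cells express, chosen by name, with the platform's annotation used to find their probe sets. A probe set was listed for 42 of the 43, among 18194 genes in all. Cyclin B1 (Ccnb1) was not analysed here. Of the 42, 11 act in DNA replication (Mcm2 to Mcm7, Pcna, Rrm1, Rrm2, Tyms and Tk1) and 31 in mitosis and its control. The samples were 12 left ventricles of Balb/c mice aged 6 to 8 weeks, each measured as total RNA on 1 Affymetrix array, with no replicate in any group.

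The procedures were transverse aortic constriction (TAC), in which a ligature narrows the aorta and raises the load on the left ventricle, sampled at 1 day, 1 week and 1 month, myocardial infarction (MI) by coronary ligation, sampled at 1 week and 1 month, and infusion of angiotensin II (Ang II), which constricts vessels, at 2 mg/kg/day for 1 week. Sham-operated mice of the same series and time served as controls for TAC and MI, and mice with a saline infusion as vehicle for Ang II. The array labels name only a ligation for MI, while the series text describes a 30 min occlusion followed by reperfusion. For the 1 day time, the labels of the arrays (TAC) were followed where the text on the series names MI. The labels name no genetic modification, and whether an array holds RNA of 1 animal or of a pool is not stated. All 10 cardiomyocyte markers of a list were measured and bright enough to be tested, and their summed signal ran from 92709.8 to 114093 on the procedure arrays and from 107994 to 118331 on the control arrays.

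A cell that divides copies its DNA in S phase and separates the copies in M phase. The MCM proteins form the helicase that opens DNA, Pcna clamps the polymerase to it, and ribonucleotide reductase, thymidylate synthase and thymidine kinase supply nucleotides. Cyclins A and B with the kinase Cdk1 drive entry into mitosis, kinetochore and spindle proteins pull the chromosomes apart, and a separate set of proteins divides the cell body. Most adult cardiomyocytes no longer divide, whereas fibroblasts, endothelial cells and leukocytes of an injured heart can. In whole ventricle RNA, more cells of a dividing type and more RNA per cell cannot be told apart.

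Signals were scaled to a common trimmed mean, raised to a floor of 4.54 where lower, and each gene was read from its brightest probe set. Values are log2 ratios of the procedure array to its own control. The test was limma's paired fit of the mean of the 6 pairs over 11624 genes, with a Benjamini-Hochberg adjusted p under 0.05 as threshold. The ± is its standard error. Genes with a mean signal of at most 18.1 were not tested, which left 31 of the 42 members, 9 of 11 replication and 22 of 31 mitotic genes. At least 1 array was at the floor for 16 of the 42, and ratios of those members depend on it. The probe sets of 10 members (Aurkb, Cdca8, Cks2, Knstrn, Mcm2, Mcm3, Mcm5, Mcm7, Prc1 and Rrm2) are of kinds that may also bind related transcripts.

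Of the 31 members tested, 9 rose in the mean of the 6 pairs and 0 fell. The 9 were Mki67, Top2a, Cdk1, Cks2, Nusap1, Prc1, Racgap1, Anln and Ube2c, all among the 22 mitotic genes tested, with mean log2 ratios from 0.82 to 1.64. The 9 of 31 members tested stand beside 5.16% of all genes tested that rose and 5.7% that fell. Within the models, limma's mean of the 3 TAC pairs passed for 1 member, Prc1, at 2.26 ± 0.44 (adjusted p = 0.0465), beside 1.08% of all genes. Its mean of the 2 MI pairs passed for 0 members, beside 0.826%, with Cks2 nearest (adjusted p = 0.0756). At an unadjusted p under 0.05 the members higher were 13 for TAC and 7 for MI, beside 9.43% and 9.6% of all genes. The median of the mean log2 ratio over all 42 members was 0.75, and over all genes tested it was -0.0038. Members higher in all 6 pairs numbered 8 of 42, of which 6 were among the 31 tested, beside 8.67% of all genes. Of the 9 replication genes tested, 0 passed limma's test. At an unadjusted p under 0.05, 6 of these 9 and 12 of the 22 mitotic genes tested were higher, beside 13.4% of all genes. Without the Ang II pair 1 replication gene passed limma's test, Mcm3 at 0.76 (adjusted p = 0.0232), beside 5.84% of all genes. The count of 9 fell to 0 without the MI 1 week pair, 1 without TAC 1 week, 1 without TAC 1 month and 2 without MI 1 month, and the share of all genes that rose fell with it, to 1.33%, 1.55%, 1.63% and 1.47%. Without MI 1 week the mean of Anln was 1.27 and that of Cdk1 1.44. The count was 1 without the pairing (2.12% of all genes), 2 without an intensity trend in the variance (1.49%), 4 when all probe sets of a gene were averaged (20 members then tested, 3.35%) and 0 without the filter on dim genes, where 0 of 18194 genes passed in either direction.

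**Figure D1:**
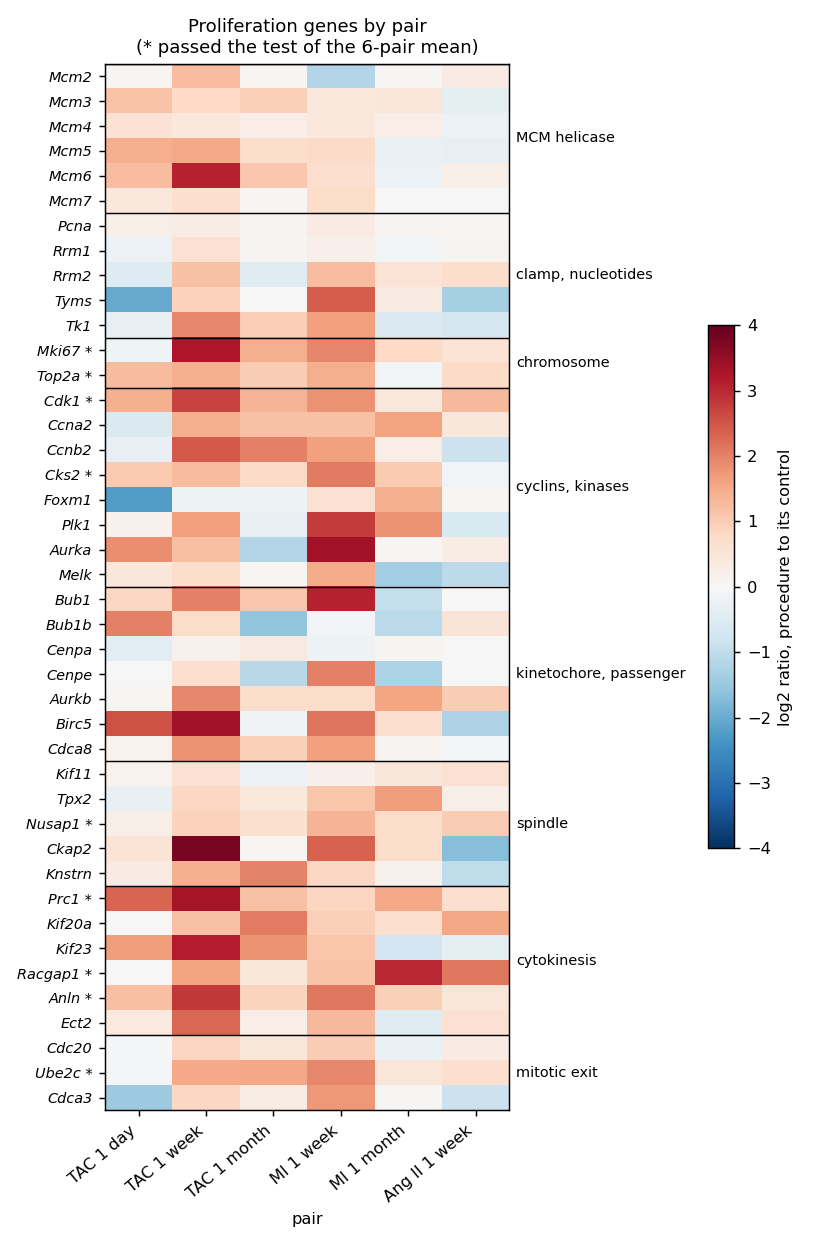
Log2 ratio of each of the 42 members (rows, grouped by role) in each of the 6 pairs (columns), with higher in red, lower in blue and the scale in the colour bar. Rows with an asterisk are the 9 members that passed the test of the 6-pair mean, and the TAC 1 week and MI 1 week columns hold higher values in 41 and 39 of the 42 rows.

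Mki67 encodes Ki-67, a protein that coats mitotic chromosomes and marks cycling cells. Its signal was 18.7 in TAC 1 day against 21.2 in its sham, 192 in TAC 1 week against 20.5 in its sham, 59 in TAC 1 month against 21.7 in its sham, 217 in MI 1 week against 55.4 in its sham, 73 in MI 1 month against 42.3 in its sham and 87.7 in Ang II 1 week against 59.8 in its control. The TAC 1 week and MI 1 week arrays were the highest of the 12 and lay above every control, while the TAC 1 day array lay below its sham. Mki67 rose by 1.30 ± 0.37 (adjusted p = 0.0493), with 5 of 6 pairs higher. Top2a, the topoisomerase that untangles replicated chromosomes, had signals of 37.4 in TAC 1 day against 15.4 in its sham, 101 in TAC 1 week against 36.6 in its sham, 66.9 in TAC 1 month against 32.8 in its sham, 152 in MI 1 week against 55.4 in its sham, 55 in MI 1 month against 60.0 in its sham and 67.2 in Ang II 1 week against 39.7 in its control. The same 2 arrays were again highest, and MI 1 month lay just below its sham. Top2a rose by 0.98 ± 0.22 (adjusted p = 0.0244).

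**Figure D2:**
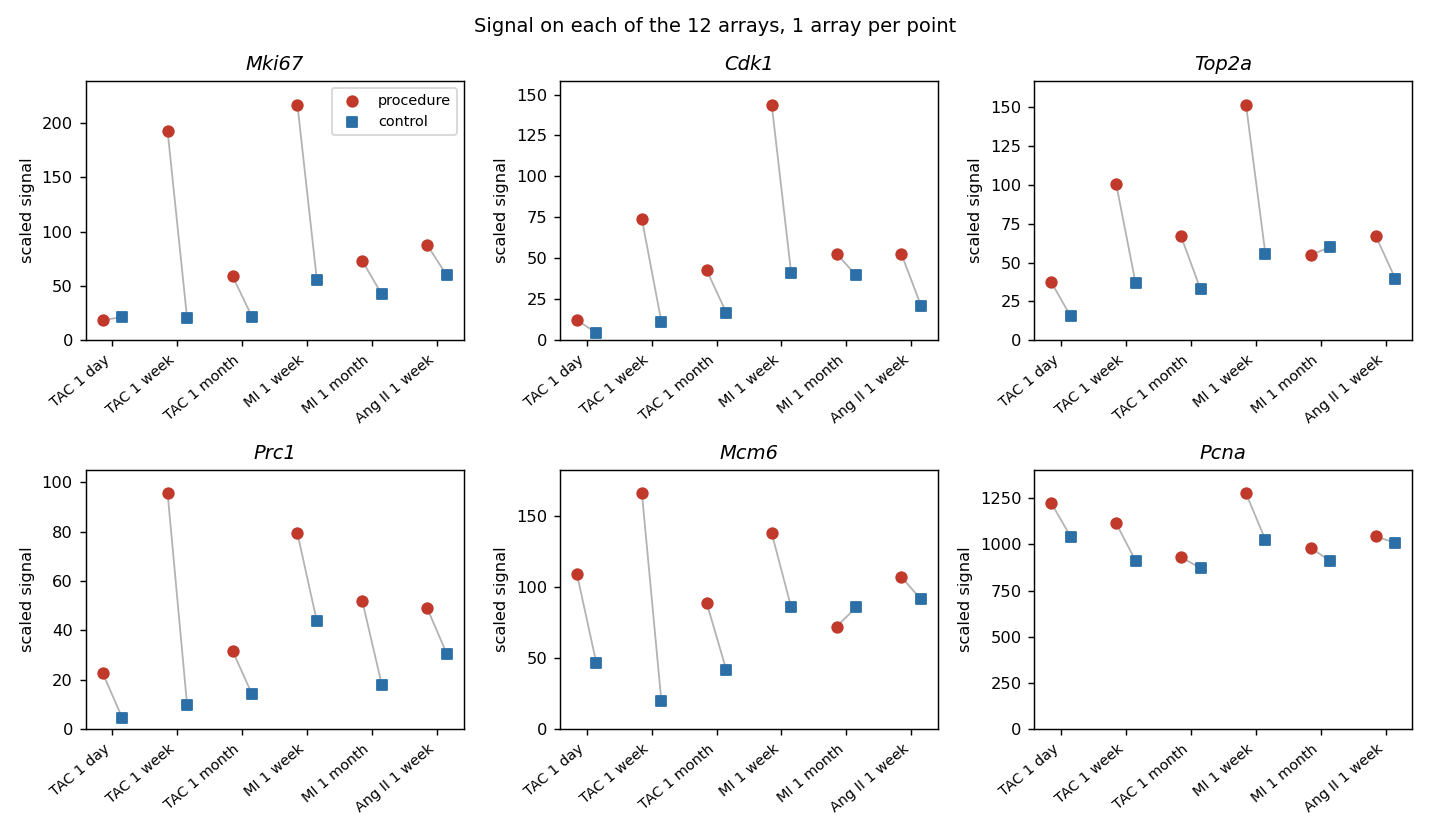
Scaled signal (linear axis from 0) of 6 members on the 12 arrays, 1 point per array, with each procedure array (red circle) left of its control (blue square) and joined to it. Mki67, Cdk1, Top2a and Prc1 are highest on the TAC 1 week or MI 1 week arrays, while Pcna stays between 871 and 1277 on all of them.

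Among the cyclins, kinases and their partners, Cdk1 and Cks2 rose. Cdk1, the kinase that starts mitosis, had signals of 12.2 in TAC 1 day against 4.54 in its sham, 74 in TAC 1 week against 11.3 in its sham, 42.7 in TAC 1 month against 16.8 in its sham, 144 in MI 1 week against 41.1 in its sham, 52.9 in MI 1 month against 39.7 in its sham and 52.5 in Ang II 1 week against 21.2 in its control, the first sham being at the floor. It was higher in all 6 pairs and rose by 1.5 ± 0.28 (adjusted p = 0.0148). Cks2, a small protein that binds Cdk1, had signals of 46.6 in TAC 1 day against 22.4 in its sham, 92 in TAC 1 week against 38.3 in its sham, 83.1 in TAC 1 month against 48.7 in its sham, 116 in MI 1 week against 27.3 in its sham, 40.2 in MI 1 month against 19.3 in its sham and 38 in Ang II 1 week against 41.3 in its control. With the probe set used it was lower than its control with Ang II alone, and it rose by 1.02 ± 0.25 (adjusted p = 0.0328). A further Cks2 probe set, with a mean of 1.20, was above the control with Ang II (0.53). It was below the sham at TAC 1 day (-0.51). Cyclin A2 (Ccna2) had a mean log2 ratio of 0.88 ± 0.28 (adjusted p = 0.0702) and cyclin B2 (Ccnb2) of 0.87 ± 0.43 (adjusted p = 0.212), neither past the threshold. A further Ccna2 probe set had a mean of 1.31, and 1.87 in TAC 1 day, where the 2 probe sets disagreed in sign. With the probe sets used, both cyclins were below the sham at TAC 1 day (-0.57 and -0.33) and above it at TAC 1 week (1.46 and 2.44).

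Plk1, a kinase of spindle assembly, did not pass (0.91 ± 0.46, adjusted p = 0.222). Its signal was 47.8 in MI 1 week against 6.88 in its sham and 29.8 in TAC 1 week against 9.65 in its sham. Aurka, the kinase of spindle poles, was too dim to be tested, at 46.6 in MI 1 week against its sham at the floor and 42.2 in TAC 1 week against 18.4. Melk, a kinase found in dividing cells, was not tested either, and on all arrays but MI 1 week (36.7) its signal was at most 14.3. Foxm1, a transcription factor that switches on many mitotic genes, was at 49.2 in TAC 1 week against 56.4 in its sham and 49.9 in MI 1 week against 33.1, with a mean log2 ratio of -0.10 ± 0.40 (adjusted p = 0.903), a sign that turned (0.016) with signals as deposited. Its controls ran from 5.92 (MI 1 month) to 58.4 (TAC 1 month). Further Foxm1 probe sets, too dim to be tested, had means of 1.04, 0.56 and 0.38.

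Kinetochore and chromosomal passenger genes, which attach and check chromosomes, were mostly too dim to be tested. Birc5 (survivin) had 73.1 in MI 1 week against 16.7 in its sham and 47 in TAC 1 week against a sham at the floor. At TAC 1 day Birc5 was at 26.8, its sham also at the floor. Bub1, a checkpoint kinase, was at the floor on 5 of 6 controls, and its highest signals were 38.4 in MI 1 week and 18.5 in TAC 1 week. Aurkb, the passenger kinase, was not tested and was higher in all 6 pairs, by 0.092 to 1.93 on the log2 scale, its Ang II control being at the floor. A further, dimmer Aurkb probe set had a mean of -0.078. It was lower in TAC 1 month (-0.79), in MI 1 month (-1.03) and with Ang II (-1.37), and higher in the remaining pairs. Cdca8, a passenger subunit, had a mean log2 ratio of 0.76 ± 0.34 (adjusted p = 0.174), with 1.80 in TAC 1 week and 1.65 in MI 1 week. Bub1b, a checkpoint protein, and Cenpe, a kinetochore motor, were each higher in 3 of 6 pairs with the probe sets used (means of 0.078 and 0.059). A further Cenpe probe set had a mean of 0.70, and further Bub1b probe sets had means of 0.38 and 0.82. The first of these Bub1b sets was at -2.21 in TAC 1 day, 2.23 in TAC 1 week and 1.85 in MI 1 week. The one used was at 2.01, 0.72 and -0.11 there. None was bright enough to be tested. Cenpa, the histone of centromeres, lay between 225 and 365 on all 12 arrays, with a mean log2 ratio of 0.0076 ± 0.11 (adjusted p = 0.971).

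Of the spindle genes, Nusap1, which bundles microtubules at chromosomes, rose by 0.82 ± 0.21 (adjusted p = 0.0405) and was higher in all 6 pairs. Its signal was 17.5 in TAC 1 day against 15 in its sham, 55.6 in TAC 1 week against 29.2 in its sham, 28.1 in TAC 1 month against 17.9 in its sham, 89.1 in MI 1 week against 35 in its sham, 43.5 in MI 1 month against 26.1 in its sham and 35.3 in Ang II 1 week against 17.3 in its control. Ckap2, a microtubule stabiliser, was far above its sham at TAC 1 week (63.2 against a sham at the floor) and MI 1 week (67.4 against 13.2), and below its control with Ang II (5.38 against 17.5). It did not pass (0.97 ± 0.60, adjusted p = 0.316). Tpx2, which activates Aurka, had a mean of 0.66 with its brightest probe set and -0.062 with another. The latter was the 1 of 16 further probe sets bright enough to be tested whose mean differed in sign from that of the one used. Kif11, the motor that separates spindle poles (0.30), and Knstrn, a kinetochore and spindle protein (0.62), did not pass.

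The 6 genes of cytokinesis had a median log2 ratio of 2.57 in TAC 1 week. It was 1.23 with probe sets averaged and 1.78 with a floor at the 40th percentile. Prc1, which crosslinks the midzone of the spindle, had signals of 22.7 in TAC 1 day against 4.54 in its sham, 95.5 in TAC 1 week against 9.76 in its sham, 31.7 in TAC 1 month against 14.1 in its sham, 79.3 in MI 1 week against 43.6 in its sham, 51.9 in MI 1 month against 18 in its sham and 48.9 in Ang II 1 week against 30.6 in its control. Every procedure array was above its own control, the first sham being at the floor, and Prc1 rose by 1.64 ± 0.34 (adjusted p = 0.021). A further Prc1 probe set had a mean of 1.63, but it was below the sham in MI 1 month (-0.16). In MI 1 week it was at 3.70, where the one used was at 0.86. Anln (anillin), a scaffold of the contractile ring, had signals of 33.5 in TAC 1 day against 14.6 in its sham, 86.4 in TAC 1 week against 12 in its sham, 41.9 in TAC 1 month against 22.6 in its sham, 131 in MI 1 week against 30.6 in its sham, 38.7 in MI 1 month against 20.04 in its sham and 33.6 in Ang II 1 week against 23.8 in its control. It was higher in all 6 pairs and rose by 1.41 ± 0.31 (adjusted p = 0.0234). Racgap1, a regulator of the same ring, had signals of 20.4 in TAC 1 day against 20.4 in its sham, 87.5 in TAC 1 week against 28.7 in its sham, 30.1 in TAC 1 month against 22 in its sham, 91.7 in MI 1 week against 41.8 in its sham, 40.8 in MI 1 month against 5.09 in its sham and 48.7 in Ang II 1 week against 11.2 in its control. Its largest ratios were in MI 1 month and with Ang II, whose controls were the lowest of the 6, and it rose by 1.39 ± 0.37 (adjusted p = 0.0419). Kif23, a midzone motor, did not pass (1.1 ± 0.47, adjusted p = 0.155), and the motor Kif20a and Ect2, which activates the contractile ring, were not tested, at 1.18 and 2.30 in TAC 1 week.

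Among genes of mitotic exit, Ube2c, the enzyme that marks cyclins for destruction, had signals of 16.5 in TAC 1 day against 17.3 in its sham, 75.8 in TAC 1 week against 26.7 in its sham, 54.9 in TAC 1 month against 18.8 in its sham, 108 in MI 1 week against 28.6 in its sham, 37 in MI 1 month against 26.4 in its sham and 24.6 in Ang II 1 week against 15.4 in its control. It was higher in 5 of 6 pairs and rose by 1.01 ± 0.28 (adjusted p = 0.0483). Cdc20, which activates that destruction, reached 117 in MI 1 week and 106 in TAC 1 week against 45 to 58.5 on the 6 controls, without passing (0.38 ± 0.19, adjusted p = 0.204). Cdca3, a trigger of mitotic entry, had a mean of 0.10 ± 0.41 (adjusted p = 0.906). With the probe sets used, all 3 genes were above the sham at TAC 1 week and MI 1 week. At TAC 1 day these probe sets were below it, but Cdc20 (-0.074) and Ube2c (-0.070) were near the median of all genes tested there (-0.074). Cdca3 was at the floor on the TAC 1 day array, and a further Cdc20 probe set was at 0.052. The further Cdca3 probe sets, too dim to be tested, differed. They were at 1.79 and 0.62 in TAC 1 day, -0.35 and -0.67 in TAC 1 week, and 0.044 and -1.82 in MI 1 week.

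The replication genes had a median of 0.32 for the mean of the 6 pairs, against 0.91 for the mitotic genes. Mcm6, a helicase subunit, had signals of 109 in TAC 1 day against 46.1 in its sham, 166 in TAC 1 week against 19.6 in its sham, 88.4 in TAC 1 month against 41.6 in its sham, 138 in MI 1 week against 85.6 in its sham, 72 in MI 1 month against 85.4 in its sham and 107 in Ang II 1 week against 91.1 in its control. Its TAC 1 week sham was the lowest of the 12 arrays, and the mean was 1.01 ± 0.35 (adjusted p = 0.0879). With the probe sets used, the log2 ratio of 3.08 in TAC 1 week was the largest of any replication gene in any pair. A further Mcm6 probe set was at 0.93 there and above the sham in MI 1 month (0.69), with a mean of 0.59. Mcm5 had signals of 91.2 in TAC 1 day against 33.6 in its sham, 112 in TAC 1 week against 38.9 in its sham, 52.8 in TAC 1 month against 32.2 in its sham, 144 in MI 1 week against 84.8 in its sham, 65.9 in MI 1 month against 79.7 in its sham and 66.5 in Ang II 1 week against 83.8 in its control, with a mean of 0.64 ± 0.26 (adjusted p = 0.132). A further Mcm5 probe set was above the control in MI 1 month (0.23) and with Ang II (0.64), with a mean of 0.74. Mcm3 (0.57 ± 0.20, adjusted p = 0.0902), Mcm4 (0.29 ± 0.12, adjusted p = 0.153) and Mcm7 (0.32 ± 0.12, adjusted p = 0.119) were higher in 5, 5 and 6 of the 6 pairs and did not pass. Mcm2 was the exception among the helicase subunits, at 219.7 in TAC 1 week against 92.8 in its sham but 60.3 in MI 1 week against 136. A further Mcm2 probe set had log2 ratios of 0.95 and -0.14 in these pairs.

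Pcna, the polymerase clamp, was higher in all 6 pairs by small amounts, the smallest 0.048 (Ang II) and the largest 0.32 (MI 1 week), with a mean of 0.18 ± 0.066 (adjusted p = 0.0991). Rrm2, the S phase subunit of ribonucleotide reductase, had 110.5 in MI 1 week against 46.8 in its sham and 73.4 in TAC 1 week against 32.8, and a mean of 0.44 ± 0.27 (adjusted p = 0.317). With this probe set it lay below the sham at TAC 1 day and TAC 1 month (-0.52 and -0.49), while a further probe set lay above it at both (0.13 and 0.81) and had a mean of 1.16. Rrm1, the large subunit of the same enzyme, had a mean of 0.11 ± 0.12 (adjusted p = 0.584). Tk1, thymidine kinase, was not tested and had 59.1 in MI 1 week against 18.8 in its sham and 47.5 in TAC 1 week against 12.6. Tyms, thymidylate synthase, was not tested either, its signal was at most 24.3, and it was at the floor on 5 arrays.

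The 31 mitotic genes were compared with the 11 replication genes in each pair by their medians, without a test. In TAC 1 week the median log2 ratio was 1.46 for mitotic and 0.92 for replication genes. In MI 1 week it was 1.45 and 0.69, in TAC 1 month 0.65 and 0.12, and in MI 1 month 0.44 and 0.041. With Ang II it was 0.30 and 0.0049. Mitotic genes were ahead in these 5 pairs, by 0.30 to 0.77, and the same difference between control arrays of the same time lay between -0.20 and 0.20. In TAC 1 day it ran the other way, with 0.17 and 0.23. The medians of all genes tested lay between -0.074 and 0.009. A floor at the 40th percentile made the Ang II difference -0.0049, and averaging probe sets made that of TAC 1 day 0.10. Averaging also brought TAC 1 month (0.12) and Ang II (0.11) inside the range of -0.20 to 0.20. Against the mean of controls of the same time, MI 1 month (0.13) and Ang II (0.12) lay inside it. The difference stayed at 0.33 or more in TAC 1 week and 0.59 or more in MI 1 week in all settings. At least 1 array was at the floor for 15 of the 31 mitotic and 1 of the 11 replication genes.

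In TAC 1 day the 6 helicase genes were all above their sham, with a median of 0.87 and the largest ratios for Mcm5 (1.44), Mcm6 (1.24) and Mcm3 (1.15). The median was -0.34 for the clamp and nucleotide genes, of which 4 of 5 were below the sham. For the 3 genes of mitotic exit it was -0.074, and for all genes tested also -0.074. With probe sets averaged, the helicase median was 0.39 and that of the clamp and nucleotide genes -0.041. Of the 4 genes below the sham, Tyms and Tk1 were too dim to be tested, and further probe sets of Rrm1 (0.47) and Rrm2 (0.13) were above it. Against the mean of all 6 controls the helicase median was 0.45, and the 1 day sham was low for some of these genes (33.6 for Mcm5, against up to 84.8 on another control). Over all 42 members 27 were higher and 14 lower than the sham in this pair, with a median of 0.20.

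**Figure D3:**
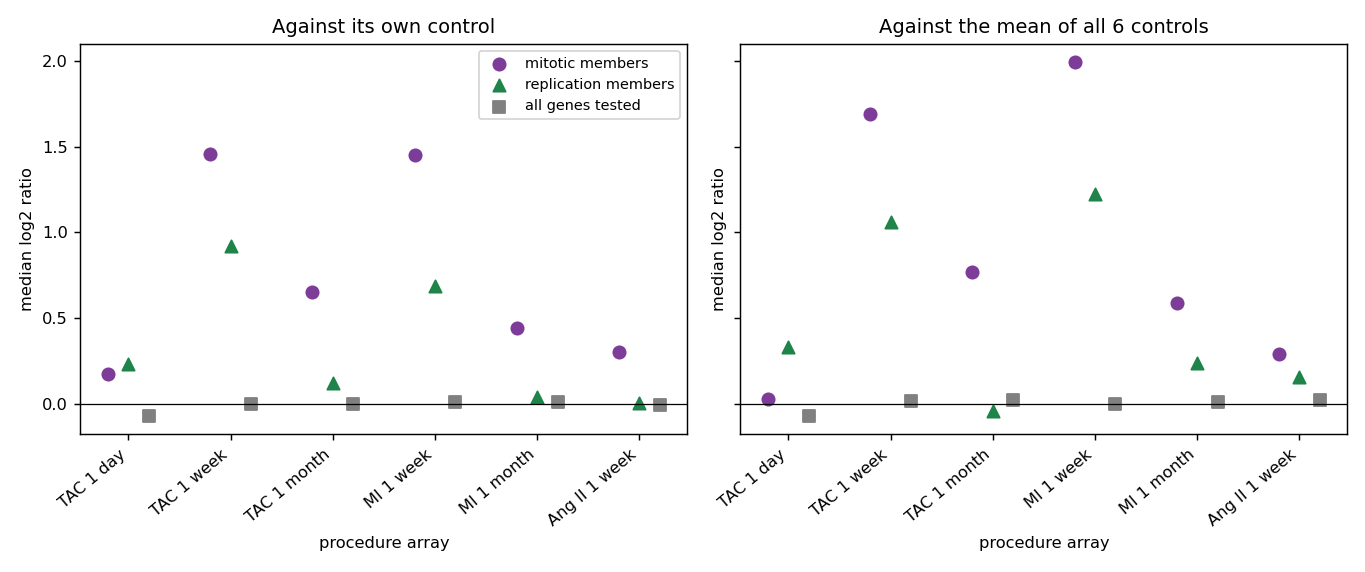
Median log2 ratio of the 31 mitotic members (purple circles), the 11 replication members (green triangles) and all genes tested (grey squares) on each procedure array, against its own control (left) and against the mean of all 6 controls (right). The medians are highest at 1 week of TAC and MI, and MI 1 week exceeds TAC 1 week in the right panel (2.00 and 1.69 for mitotic genes).

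The promoters of the members were searched for letters of motifs known from cell cycle genes. Transcription in late cell cycle is known to act through the cell cycle genes homology region (CHR), often with CCAAT boxes nearby, and transcription at the start of S phase through E2F sites. RefSeq promoter sequences on GRCm38.p6, which run from 250 bases before to 50 bases after the transcript start, were found for 36 of the 42 members. Each gene counts once, with any of its promoters; 3 of the 36 had more than 1. CHR letters (TTTGAA or TTCGAA, on either strand) were present for 20 of 26 mitotic and 2 of 10 replication genes, against 21.7% of all 27025 genes in the table. E2F letters (TTCCCGC or TTCGCGC or TTGGCGC or TTGCCGC, on either strand, some overlapping each other) were present for 3 of 26 mitotic and 6 of 10 replication genes, against 10.9%. CCAAT, on either strand, was present for 21 of 26 and 8 of 10, against 41.1%. Of the 9 members that rose, all mitotic, 7 held CHR letters, the exceptions being Cks2 and Nusap1. That share was close to the 76.9% (20 of 26) of all mitotic genes with a promoter, so CHR letters did not set apart the members that rose. A match is a run of letters, not a binding site.

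The 180 bases before the start are shown for 4 genes that rose and hold CHR letters there, and for the 2 helicase genes with the largest mean ratios, which hold E2F letters. Capitals mark CHR letters (6 bases) and E2F letters (7 bases, longer where matches overlap), 5′ to 3′ on the strand of the gene.
Cdk1, chr10:69352913-69353092, minus strand: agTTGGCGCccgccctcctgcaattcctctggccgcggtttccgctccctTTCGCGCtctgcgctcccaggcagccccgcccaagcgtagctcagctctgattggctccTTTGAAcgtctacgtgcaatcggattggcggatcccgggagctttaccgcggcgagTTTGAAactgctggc
Ube2c, chr2:164769749-164769928, plus strand: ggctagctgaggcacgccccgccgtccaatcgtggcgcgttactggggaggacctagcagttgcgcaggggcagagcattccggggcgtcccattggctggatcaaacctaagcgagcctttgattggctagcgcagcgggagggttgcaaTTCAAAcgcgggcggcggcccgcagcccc
Top2a, chr11:99024190-99024369, minus strand: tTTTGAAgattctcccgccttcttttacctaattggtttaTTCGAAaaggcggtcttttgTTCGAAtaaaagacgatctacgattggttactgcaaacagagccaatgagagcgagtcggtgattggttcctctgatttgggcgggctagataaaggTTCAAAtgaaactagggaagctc
Mki67, chr7:135716380-135716559, minus strand: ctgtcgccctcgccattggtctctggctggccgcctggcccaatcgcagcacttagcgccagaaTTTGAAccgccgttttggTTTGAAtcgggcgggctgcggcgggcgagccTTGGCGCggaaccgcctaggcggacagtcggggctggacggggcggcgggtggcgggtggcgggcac
Mcm6, chr1:128359706-128359885, minus strand: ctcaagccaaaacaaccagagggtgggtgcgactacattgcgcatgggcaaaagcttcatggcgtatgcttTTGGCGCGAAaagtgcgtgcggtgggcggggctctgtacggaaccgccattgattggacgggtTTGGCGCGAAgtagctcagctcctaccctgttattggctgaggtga
Mcm5, chr8:75109329-75109508, plus strand: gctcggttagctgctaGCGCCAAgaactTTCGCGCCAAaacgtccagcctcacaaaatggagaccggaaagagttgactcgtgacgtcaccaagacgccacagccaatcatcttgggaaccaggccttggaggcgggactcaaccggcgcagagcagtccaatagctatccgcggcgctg
Cdk1 holds both kinds, 2 CHR and 2 E2F matches, as does Mki67 with 2 and 1. Top2a holds 4 CHR matches and Ube2c 1. Mcm6 holds 2 runs of overlapping E2F letters and no CHR letters in this stretch, and Mcm5 likewise holds only E2F letters.

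**Figure D4:**
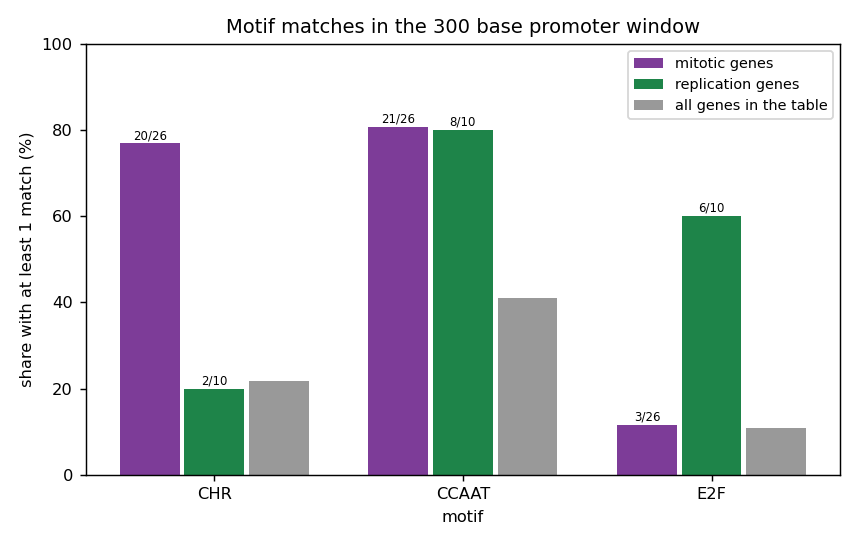
Share of genes (%, axis from 0) with at least 1 match to CHR, CCAAT or E2F letters among mitotic members (purple), replication members (green) and all genes in the RefSeq table (grey), with counts above the members' bars. CHR letters are found in 20 of 26 mitotic genes and E2F letters in 6 of 10 replication genes.

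Over the time course of TAC the median of the members was lowest at 1 day, highest at 1 week and intermediate at 1 month. The median over the 42 members was 0.20, 1.34 and 0.45, and 27, 41 and 33 members were above the sham. Single members at 1 day scattered in both directions, from -2.25 (Foxm1) to 2.56 (Birc5). From array to array, 40 of 42 had a lower signal at TAC 1 month than at TAC 1 week. After MI the median was 1.20 at 1 week and 0.27 at 1 month, and 39 of 42 had a lower signal on the MI 1 month than on the MI 1 week array. With Ang II the median was 0.08, and 26 members were higher and 15 lower. The median of the members differed by 0.19 to 0.55 between control arrays of the same time, with 0.30 between the 2 shams at 1 month. The TAC 1 week and MI 1 week medians were larger than each of these. The TAC 1 month median was larger than the difference at 1 month and smaller than the largest at 1 week, and it was 0.71 with a floor at the 10th percentile and 0.77 without scaling. The MI 1 month median was smaller than the difference at 1 month, and that of Ang II smaller than those at 1 week. No pair of controls shared the 1 day time.

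Members were counted as 2-fold in a pair under 3 conditions: a log2 ratio of 1 or more in size, a brighter signal above 25.9, the median of all values, and a procedure signal beyond all 6 controls. By this rule 24 of 42 members were higher in TAC 1 week, 5 replication and 19 mitotic genes, and 18 of these were among the 31 members tested, beside 2.18% of all genes tested. In MI 1 week 24 were higher, 2 replication and 22 mitotic, again with 18 among the 31 tested beside 6.01% of all genes, and 1 (Mcm2) was lower beside 1.3%. The tested members counted as higher were 3 in TAC 1 day (5.7% of all genes), 3 in TAC 1 month (1.91%), 4 in MI 1 month (2.89%) and 3 with Ang II (0.946%). Lower by 2-fold were 0 members in the 5 other pairs, beside 6.4%, 0.826%, 1.26%, 0.619% and 0.774% of all genes in TAC 1 day, 1 week and 1 month, MI 1 month and Ang II. Above all 6 controls, whatever the fold, were 26 of 31 tested members in TAC 1 week (21.8% of all genes), 26 in MI 1 week (25%), 7 in TAC 1 day (24.6%), 9 in TAC 1 month (19.3%), 12 in MI 1 month (19.6%) and 12 with Ang II (13.9%). A single pair has no replicate check.

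The control arrays themselves differed in these genes by series. For 14 of the 31 members tested, all 3 controls of the MI and Ang II series were above all 3 shams of the TAC series, beside 6.07% of all genes tested, and for 0 members they were all below, beside 7.17%. Over all 42 members these were 17, among them Mki67, Top2a, Cdk1, Prc1, Mcm5 and Mcm6. Mki67 had 55.4, 42.3 and 59.8 on the MI 1 week, MI 1 month and Ang II controls, against 21.2, 20.5 and 21.7 on the TAC shams at 1 day, 1 week and 1 month. Relative to the mean of the 6 controls, the median of the members was 0.49, 0.23 and 0.28 on those 3 arrays and -0.35, -0.077 and -0.14 on the TAC shams. The median of all genes tested lay between -0.0064 and 0.027. Series and kind of surgery or infusion cannot be told apart.

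**Figure D5:**
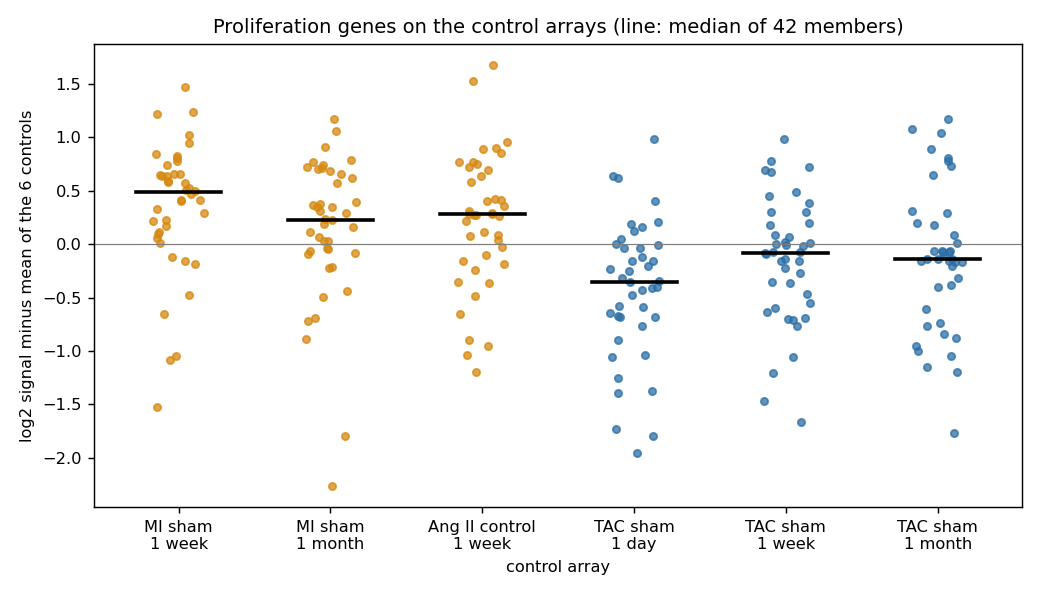
Log2 signal of each of the 42 members on each control array minus its mean over the 6 controls (points), with the median of the members as a black line. The controls of the MI and Ang II series (orange) have medians from 0.23 to 0.49, above those of the TAC shams (blue), from -0.35 to -0.077.

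Whether MI 1 week or TAC 1 week stood higher depended on the control used. The own-control ratio put the list median of MI 1 week at 1.20 and that of TAC 1 week at 1.34, but the signal itself was higher on the MI 1 week than on the TAC 1 week array for 33 of 42 members, beside 50.3% of all genes tested, and MI 1 week was the highest of the 12 arrays for 31 of the 42. Against the mean of the 3 controls at 1 week the medians were 1.66 for MI 1 week and 1.36 for TAC 1 week. Relative to the mean of all 6 controls, Anln was at 2.74 in MI 1 week and 2.13 in TAC 1 week, Mki67 at 2.71 and 2.54, Ube2c at 2.33 and 1.81, and Rrm2 at 1.77 and 1.18. For 9 of the 42 members the order was the other way, among them Prc1 (2.34 and 2.61), Mcm6 (1.35 and 1.61) and Mcm2 (-0.54 and 1.33). With a shared reference, the order is that of the signals on the 2 arrays. These are differences of single arrays and carry no test. The paired limma fit of the TAC minus MI difference passed for 0 of the 31 members, with 4 at an unadjusted p under 0.05, and for 0 of all genes, with 527.

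Markers of other cell types moved on the same arrays. The summed signal of 10 macrophage and monocyte markers was 11579 in MI 1 week against 4451 in its sham, 6114 in TAC 1 day against 3696, and 5997 in TAC 1 week against 5460.2. Over the procedure arrays that sum ran from 3722 to 11579 and over the controls from 3202 to 5460.2, and 6 of the 10 markers rose. The sum of 10 fibroblast markers was 31389 in MI 1 week against 12684 in its sham and 22565 in TAC 1 week against 12479.7. It ran from 11006 to 31389 on procedure arrays and from 10055 to 12684 on controls, and 5 of the 10 rose. Of 10 endothelial markers 0 passed limma's test, with sums from 3946 to 4898 on procedure arrays and from 3560.5 to 5074 on controls. The cardiomyocyte sum was 92709.8 in TAC 1 week against 112200.0 in its sham, and 2 of its 10 markers fell. The 6 markers of mural cells summed to 5084 to 7088 on procedure arrays and 6153 to 7154 on controls, and 2 rose. The 5 mesothelial markers summed to 80.0 to 224 and 80.3 to 167. Beside these counts of markers, 5.16% of all genes tested rose and 5.7% fell. The part of these cell types in the mitotic result was not tested.

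Of 8 thymocyte markers, which were listed since the thymus holds dividing cells close to the operated aorta, 3 (Rag1, Rag2 and Dntt) were at the floor on 9 or more of the 12 arrays, and 1 was bright enough to be tested. Their sum ran from 78 to 125 on procedure arrays and from 99.1 to 138 on controls, and their part in the result was not tested. For 6 lymphocyte markers it ran from 46.9 to 75.3 and from 41.2 to 83.4, with Cd3d and Cd2 at the floor as often. The 5 erythroid markers summed to 133 to 480.1 and 264 to 472, with Epb42 at the floor as often. The 6 neutrophil markers summed to 1508 in TAC 1 day against 194 in its sham and 987 in MI 1 week against 185, but 189 in TAC 1 week against 405.

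Cell cycle genes outside the list were read from further lists. Of 45 further mitotic genes 22 were tested, 5 rose and 0 fell. Pbk, a mitotic kinase, rose by 1.19 ± 0.27 (adjusted p = 0.0254), Incenp, the passenger scaffold, by 0.83 ± 0.20 (adjusted p = 0.0341), Kif22, a chromosome motor, by 0.82 ± 0.19 (adjusted p = 0.027), and the condensin subunits Smc2 and Smc4 by 0.72 ± 0.15 (adjusted p = 0.0187) and 0.45 ± 0.10 (adjusted p = 0.0236). Ncapg, another condensin subunit (1.07), and Tacc3, of the spindle (1.00), were not tested. Of 28 further replication genes measured 22 were tested, 3 rose and 0 fell, namely Prim2, a primase subunit (0.95 ± 0.27, adjusted p = 0.0481), Lig1, the ligase of replication (0.85 ± 0.24, adjusted p = 0.0493), and Cdt1, which loads the helicase (0.58 ± 0.16, adjusted p = 0.0492). Uhrf1, which maintains DNA methylation at replication, had a mean of 1.42 and was not tested.

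Upstream of S phase, 1 of 8 G1 cyclins and kinases rose and 0 fell. It was Cdk6, a partner of D cyclins, at 0.46 ± 0.11 (adjusted p = 0.0277), while Ccnd1 (cyclin D1, 0.27) and Ccne2 (cyclin E2, 0.22) did not pass. Of 15 genes of the E2F and pocket protein family 11 were tested, 1 rose and 0 fell. It was E2f3, an activating E2F, at 0.49 ± 0.13 (adjusted p = 0.0396), while the pocket protein Rbl1 was at 0.50 without passing, and E2f1 (0.76) and E2f2 (0.68) were not tested. Of 7 inhibitors of cyclin-dependent kinases 6 were tested, 1 rose and 0 fell. Cdkn1a (p21), which halts the cycle after stress, rose by 1.01 ± 0.21 (adjusted p = 0.0194), at 2.17 in MI 1 week and 0.37 in TAC 1 week. Cdkn2b (0.76) and Cdkn1c (-0.52) did not pass. These lists share with the members the 5.16% of all genes that rose as background.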

How the data were processed

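The authors deposited an intensity per probe set on a linear scale, from 1-colour Affymetrix arrays. GCOS is named, without a version, per the submitters' processing notes, and the scaling is not given in the sources used here. Per the labels, 5 µg of total RNA was labelled for each array. Trimmed means (2%) ran from 105 to 131, so signals were scaled to their mean (factors 0.872 to 1.09), floored at the 20th percentile of all values (4.54) and put on the log2 scale. Of 45101 probe sets, 34958 had 1 gene symbol, 932 several and 9211 were not listed; 34754 Entrez identifiers matched RefSeq. Genes are read from the brightest probe set, with those above the 40th percentile (18.1) tested. Fits used limma 3.58.1 (R 4.3.3) with pair as a block, an intensity trend, Benjamini-Hochberg adjustment and 5 residual degrees of freedom (3 for TAC minus MI), and were checked on simulated data. The simulated data had equal noise for all genes, the same effect in every pair and no floor. That check does not cover dim genes or effects that differ by pair. Each group is 1 array, so single pairs were not tested, and p-values measure the spread between pairs, part of which may be technical and part real differences between procedures. Alternatives were the scaling, floor, probe set rule, filter, trend, block, control and each pair left out. A fit of each lone procedure array against the 6 controls, added after the data were seen, gave differences that are printed without its p-values, because those controls differed by series. The rule for named genes took all 43 members, and from each further cell cycle list the members past the threshold and the 3 with the largest mean change. The members and lists were chosen with earlier results of these data known. Genes of the lists with no probe set listed, Ccnb1 among them, were not analysed here. Sequences are RefSeq's, on GRCm38.p6.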

Additional observations from a re-analysis of the deposited data

Results flagged for a closer look

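With the probe set used, Foxm1, the mitotic transcription factor, was below the sham in all 3 TAC pairs (-2.25, -0.19 and -0.19 at 1 day, 1 week and 1 month). It was above the sham in both MI pairs (0.60 and 1.42), each beside its own sham. Relative to the mean of the 6 controls the order was not the same, with -2.65, 0.79 and 0.85 on the TAC arrays and 0.81 and -0.84 on the MI arrays at 1 week and 1 month. The TAC 1 week and 1 month shams had signals of 56.4 and 58.4, and the MI 1 month sham 5.92. With own shams, the TAC mean minus the MI mean was -1.89 on the log2 scale, and limma's paired fit gave that difference an adjusted p = 0.983. The TAC 1 day array was at the floor, and the TAC 1 week and 1 month ratios were near 0. The further Foxm1 probe sets, too dim to be tested, did not share the pattern in TAC. The brightest of them was at 1.47, -1.78 and 0.38 at TAC 1 day, 1 week and 1 month. In MI it was at 3.11 and 1.45 at 1 week and 1 month. Another was at 0, 1.05 and 0.96 in the TAC pairs.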

How the results depend on the processing

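The number of members past limma's threshold was 9, and it was 8 with signals as deposited, 6 after quantile normalization, 8 with a floor at the 10th percentile and 9 with one at the 40th. Averaging probe sets gave 4 (3 of them among the 9), and it was 2 without the intensity trend (1.49% of all genes higher, against 5.16%), 1 with no replicate block (2.12%) and 0 without the filter on dim genes, where 0 of 18194 genes passed and 17 members were higher at an unadjusted p under 0.05. Leaving out 1 pair gave 0 to 10, with 0 without MI 1 week (1.33% of all genes), where 12 were higher at an unadjusted p under 0.05. The number of members lower was 0 in all these settings. The TAC minus MI count was 0 in all of its settings. The arrays' labels give no replicate numbers, and the pairing by series and time rests on the sample titles.

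Without scaling, the median of all genes shifted to -0.23 (TAC 1 day), 0.21 (TAC 1 week), 0.31 (TAC 1 month) and 0.16 (MI 1 week), and the TAC 1 month medians became 0.77 for all members and 0.44 for replication genes. The Ang II replication median became -0.0035, and that of MI 1 month -0.000887 after quantile normalization. Against the mean of all 6 controls the MI 1 week median was 1.77 over all members (1.66 against controls of the same time), 2.00 over mitotic and 1.22 over replication genes, and the TAC 1 month replication median turned to -0.041. With probe sets averaged, the mitotic median was 1.13 in TAC 1 week and 0.30 in TAC 1 month, and the replication median of MI 1 week 0.39.

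Signs turned for 4 members that did not pass. Foxm1 was at 0.016 with signals as deposited and ran from -0.40 to 0.33 with 1 pair left out. Cdca3 was at -0.033 under a 10th percentile floor and ran from -0.23 to 0.41. Mcm2 ran from -0.14 (without TAC 1 week) to 0.34 (without MI 1 week), and Cenpa from -0.063 to 0.093. Of 423 values of single members under alternatives, 344 kept direction and side of the threshold, 67 fell short of it, 3 newly passed and 9 turned sign. The causes were not tested. The number of arrays and, for dim genes, the floor limit the precision.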
